A study of Bos taurus with 10 samples.

Results

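NTRK2, MAPK10, LRFN5 and TAGLN3 are genes best known from nervous tissue that were measured here in the right ventricle of newborn calves. They were read by 5 probe sets, which are all the probe sets on the array whose single annotated gene symbol is one of these names, among 24016 tested probe sets and 9155 genes with 1 symbol. The array was the Affymetrix Bovine GeneChip, which reads a transcript with a group of short oligonucleotides called a probe set, and each calf had its own array. The hypoxia group held 5 calves kept for 14 days in a low-pressure chamber at the equivalent of 4570 m, and the control group held 5 calves kept in ambient air at 1525 m for as long. All 10 were male Holstein animals that entered the study at postnatal day 3 to 7, and the tissue was frozen right after death. Low oxygen constricts the lung arteries, and the study compared the right ventricles of exposed and unexposed calves.

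NTRK2 encodes TrkB, the cell-surface receptor tyrosine kinase for brain-derived neurotrophic factor and neurotrophin-4, and in mice this pair also serves the small vessels of the developing heart. MAPK10 encodes JNK3, the member of the c-Jun N-terminal kinase family found chiefly in brain, heart and testis. LRFN5 encodes a leucine-rich adhesion protein of synapses that binds receptor tyrosine phosphatases, and TAGLN3 encodes the neuronal relative of the actin-binding smooth muscle protein transgelin. The 4 genes were chosen because of their differences between these same calves, so their own differences are given as a description, with no test. Values are log2 expression, where 1 unit is a doubling, and differences are hypoxia minus control ± SE from the fit across all probe sets.

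NTRK2 was lower in hypoxia on both of its probe sets. The brighter one had 5.06, 4.46, 4.70, 5.40 and 4.79 in hypoxia calves 173, 178, 192, 199 and 204, against 6.33, 6.77, 5.61, 6.14 and 6.58 in control calves 176, 177, 180, 181 and 195. The groups did not overlap, and hypoxia calf 199 lay closest to control calf 180, the lowest of the controls. The means were 4.88 ± 0.36 in hypoxia and 6.29 ± 0.45 in control calves (SD, n = 5 each), a difference of -1.41 ± 0.22, or 2.65-fold lower in hypoxia. In bulk tissue, fewer cells that express a gene and less of its RNA per cell cannot be told apart.

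The dimmer NTRK2 probe set gave 4.07, 3.48, 2.84, 4.22 and 3.15 in hypoxia calves 173, 178, 192, 199 and 204, against 5.58, 5.39, 4.45, 5.24 and 5.11 in control calves 176, 177, 180, 181 and 195. Hypoxia calf 199 and control calf 180 again faced each other across the gap. Its means were 3.55 ± 0.59 in hypoxia and 5.16 ± 0.43 in control calves (SD, n = 5 each), a difference of -1.61 ± 0.28. The brighter probe set minus the dimmer one was 1.33 ± 0.40 in hypoxia and 1.13 ± 0.31 in control calves (SD, n = 5 each), given as a description since both probe sets were chosen with the gene. The stretch of the transcript that each probe set reads was not used here, so forms of TrkB with and without the kinase domain were not separated.

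MAPK10 had 4.97, 5.31, 4.81, 5.03 and 4.41 on its 1 probe set in hypoxia calves 173, 178, 192, 199 and 204, against 6.16, 5.83, 6.90, 6.86 and 6.05 in control calves 176, 177, 180, 181 and 195. The groups did not overlap. Among the controls, calves 180 and 181 stood above the other 3, and calf 180, which was lowest for NTRK2, was highest for MAPK10. The means were 4.91 ± 0.33 in hypoxia and 6.36 ± 0.49 in control calves (SD, n = 5 each), a difference of -1.45 ± 0.23, or 2.74-fold lower in hypoxia.

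LRFN5 had 4.19, 4.37, 3.59, 4.04 and 3.73 in hypoxia calves 173, 178, 192, 199 and 204, against 5.86, 5.58, 4.49, 6.49 and 6.50 in control calves 176, 177, 180, 181 and 195. Its gap between the groups was narrow, since control calf 180 lay just above hypoxia calf 178, while the other controls were at least 1 unit higher. The controls spread more widely than for any other of the 5 probe sets. The means were 3.99 ± 0.32 in hypoxia and 5.78 ± 0.83 in control calves (SD, n = 5 each), a difference of -1.80 ± 0.34, or 3.48-fold lower in hypoxia.

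TAGLN3 ran the other way. It had 5.90, 5.76, 6.11, 6.12 and 5.14 in hypoxia calves 173, 178, 192, 199 and 204, against 4.36, 4.13, 4.23, 4.44 and 4.16 in control calves 176, 177, 180, 181 and 195. The 5 controls lay within a narrow band, and the lowest hypoxia value, in calf 204, was still above all of them. The means were 5.80 ± 0.40 in hypoxia and 4.26 ± 0.13 in control calves (SD, n = 5 each), a difference of 1.54 ± 0.17, or 2.91-fold higher in hypoxia.

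**Figure D1:**
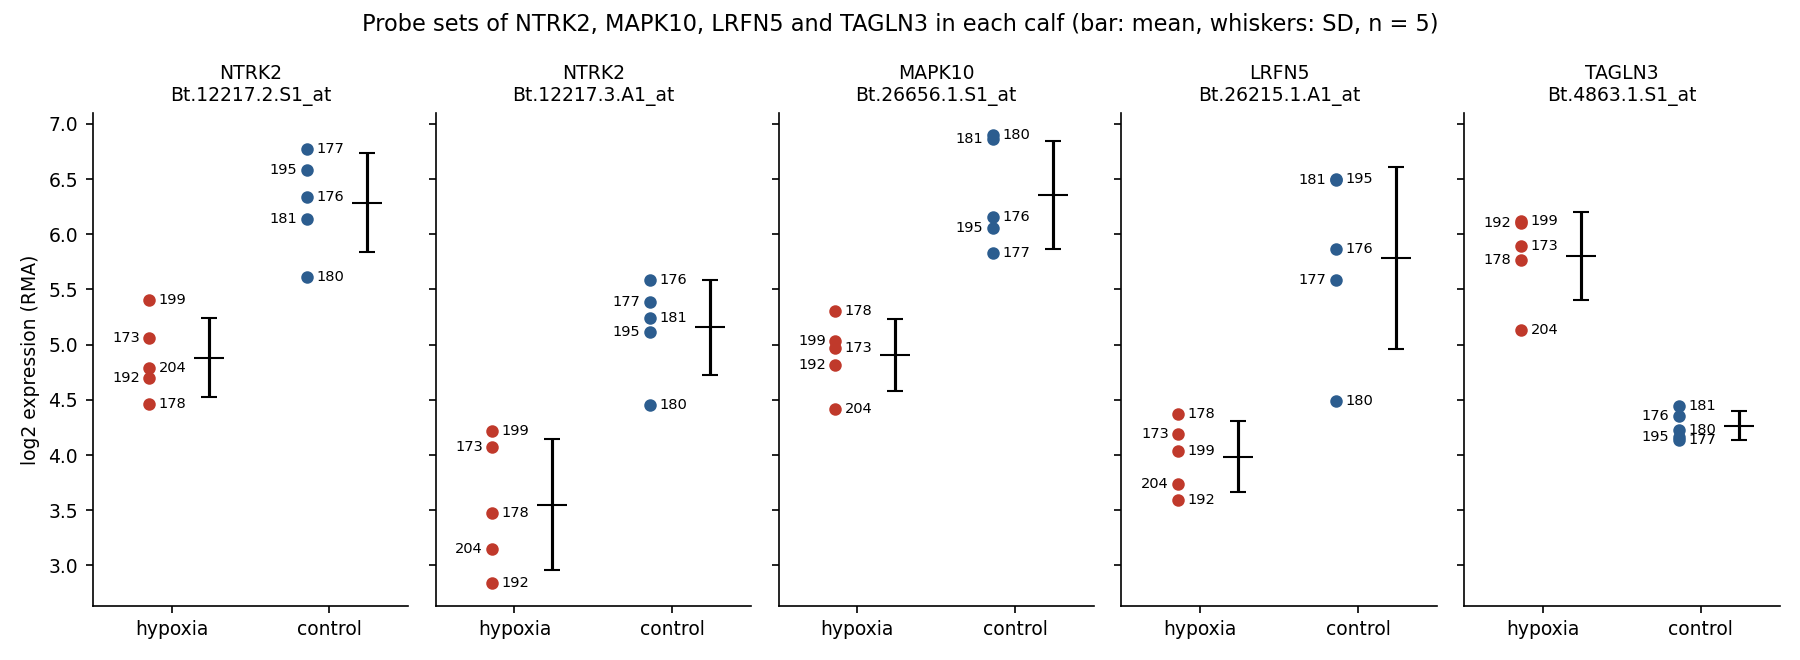
Log2 expression of the 5 probe sets (vertical axis) in each calf, labelled by calf number, with hypoxia left of control in every panel; the bar is the group mean and the whiskers the SD (n = 5). Both NTRK2 probe sets, MAPK10 and LRFN5 are lower in every hypoxia calf than in any control calf, and TAGLN3 is higher.

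In the fit across all probe sets, 5 of the 5 passed an adjusted p of 0.05 (limma with Benjamini-Hochberg adjustment), as did 2.71% of all probe sets. Of these, 4 were lower in hypoxia, where 1.07% of all probe sets passed, and 1 was higher, where 1.65% passed. The groups failed to overlap with hypoxia lower on 2.75% of all probe sets and with hypoxia higher on 2.71%. Since the genes were chosen from this contrast, these shares are given for scale and nothing is read from them. The same holds where the fit's adjusted p moves with the calves included: that of LRFN5 was 0.0562 (limma) without control calf 181, where its difference was -1.62. With 1 calf left out in turn, the differences ranged from -1.58 to -1.29 for the brighter NTRK2 probe set, from -1.78 to -1.43 for the dimmer, from -1.58 to -1.32 for MAPK10, from -2.12 to -1.62 for LRFN5 and from 1.46 to 1.71 for TAGLN3.

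Calves numbered 173 to 181 (2 hypoxia and 4 control animals, the lower run) are separated by a gap from those numbered 192 to 204 (3 hypoxia animals and 1 control, the upper run), and no label says whether a run shares a time or handling. Within the lower run the differences were -1.45 and -1.39 for the NTRK2 probe sets, -1.30 for MAPK10, -1.33 for LRFN5 and 1.54 for TAGLN3. Within the upper run they were -1.62 and -1.71 for NTRK2, -1.30 for MAPK10, -2.71 for LRFN5 and 1.63 for TAGLN3. LRFN5 was the gene whose value moved most between the runs, and with a single control calf in the upper run that gap was not tested. With the run as a block, the differences were -1.51 for both NTRK2 probe sets, -1.30 for MAPK10, -1.82 for LRFN5 and 1.57 for TAGLN3. The fit's adjusted p was then above 0.05 for LRFN5 and the dimmer NTRK2 probe set (limma, 0.0544 and 0.0515), which describes the fit and is no test of genes chosen from it.

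Facts of the whole series bear on all 5 probe sets alike. Array medians lay between 5.48 and 5.54. On the first principal component, which held 30.4% of the variance, hypoxia calves 199 and 178 stood apart at 46.1 and 34.4, the remaining 3 hypoxia calves lay at 9.79 to 13.9 and the controls at -28.0 to -13.6. Without those 2 calves the differences were -1.44 and -1.80 for NTRK2, -1.63 for MAPK10, -1.95 for LRFN5 and 1.45 for TAGLN3, so they were as large or nearly so, with an adjusted p of 0.0719 for LRFN5 (limma). Of 6 bovine control transcripts read at their 3' and 5' ends, actin alone passed a test between the groups, with a 3' minus 5' value of 1.51 to 2.55 in hypoxia and 2.81 to 4.35 in control calves (exact permutation test, p = 0.00794, the smallest possible with 5 against 5 calves, and 0.0476 adjusted over the 6). Its part in the results was not tested. Cardiomyocyte genes bore out that the tissue was heart muscle, while the chamber it came from was not tested. The 14 measured markers had a mean of 12.9 to 13.2 in hypoxia and 13.0 to 13.2 in control calves, against a highest value of 14.4 on any array. On their brightest probe sets 0 of 14 passed (limma, 0 with an unadjusted p under 0.05), beside 3.66% and 22.4% of all genes. Some, such as MYH7 and TNNI3 (named with values known, means of 14.2 in both groups), lay close to that highest value, where a difference may not show. A dimmer probe set of the myosin heavy chain gene MYH7, named after its value was seen, differed by -0.69 ± 0.15 (limma, adjusted p = 0.0371).

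The variation of the 4 genes within the groups was compared next. Each value was taken as its deviation from the mean of its own group, which removes the group difference by which the genes were chosen, and all 10 pairs of probe sets were compared over the 10 calves by exact permutation within groups. The closest pair was the 2 NTRK2 probe sets (Pearson r = 0.727, exact permutation p = 0.0247, adjusted p = 0.247; Spearman rho of ranks within groups 0.60, exact permutation p = 0.109). Without hypoxia calf 199 and control calf 180, the calves farthest from the median, r was 0.472. Across the other pairs r ran from -0.606, between MAPK10 and the brighter NTRK2 probe set, to 0.548, between LRFN5 and the dimmer one, and 0 of 10 pairs passed after adjustment (1 at an unadjusted p under 0.05). These values moved widely with the 2 calves farthest from the median of the first measure. Without control calves 180 and 195, r between LRFN5 and MAPK10 was 0.835, against -0.063 with all calves. Without hypoxia calf 192 and control calf 180, r between the dimmer NTRK2 probe set and TAGLN3 was 0.824, against 0.299 with all calves. Without control calves 180 and 195, r between LRFN5 and the brighter NTRK2 probe set was -0.273, against 0.438 with all calves. With 10 calves the data do not settle which of the genes vary together. Control calf 180 was left out in each of these, and it deviated by -0.68 and -0.70 on the NTRK2 probe sets and by -1.30 on LRFN5, but by 0.54 on MAPK10 and -0.04 on TAGLN3.

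**Figure D2:**
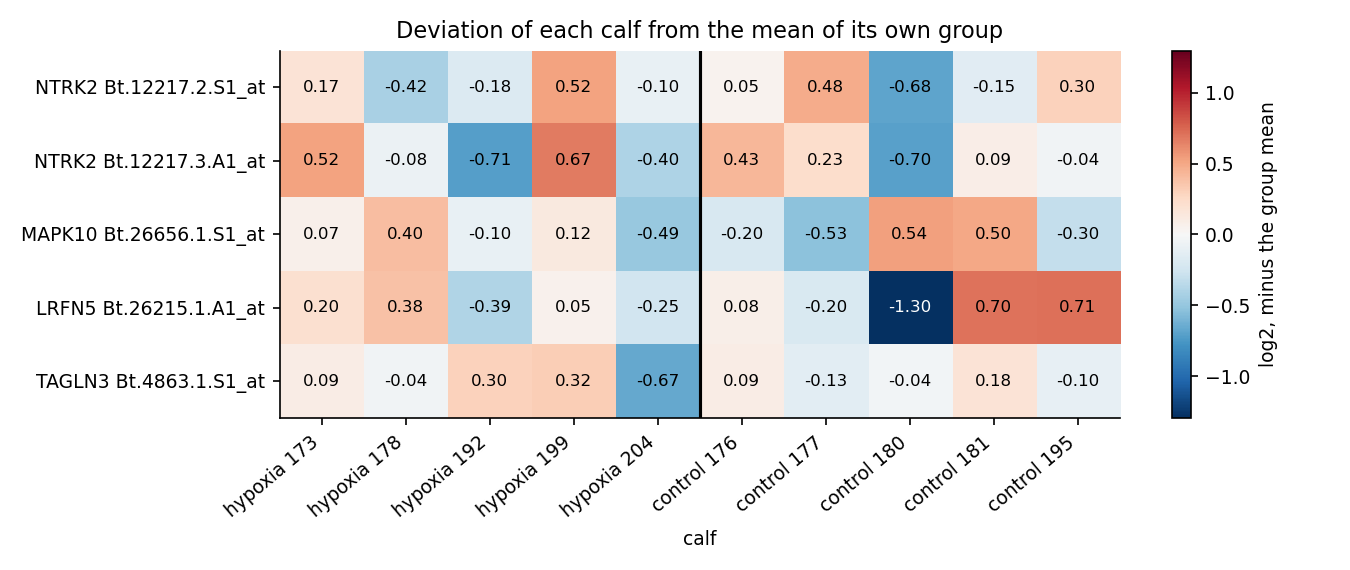
Deviation of each calf (columns, hypoxia left of control) from the mean of its own group on each probe set (rows), in log2 units, with red above and blue below the mean. Control calf 180 is low for NTRK2 and LRFN5 and high for MAPK10, and hypoxia calf 204 is the lowest of its group for MAPK10 and TAGLN3.

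The ligands of NTRK2 could not be followed, since no probe set carried the symbol BDNF, NTF3 or NTF4, and SORT1, a sorting receptor for neurotrophin precursors, was not analysed here for the same reason. Of 15 listed neurotrophins, receptors and processing genes, 5 were measured, of which 1 fell and 0 rose, where 1.49% of all 9155 genes fell and 2.17% rose (3.66% in either direction). The median difference was -0.14, against -0.01 over all genes. NTRK3, the related receptor for neurotrophin-3, differed by -0.17 ± 0.10 (95% interval -0.38 to 0.05) and did not pass (limma, adjusted p = 0.420). NGFR, the p75 receptor shared by all neurotrophins, differed by 0.14 ± 0.15 (adjusted p = 0.679) on the brightest of 3 probe sets, none of which passed.

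FURIN, a protease that cuts neurotrophin precursors and many other proproteins, was the gene of this list that fell. It had 5.83, 6.08, 5.98, 5.67 and 6.33 in hypoxia calves 173, 178, 192, 199 and 204, against 6.28, 6.88, 6.73, 6.93 and 7.00 in control calves 176, 177, 180, 181 and 195. The groups overlapped in 1 place, where hypoxia calf 204 reached just above control calf 176. The difference was -0.79 ± 0.16 (limma with Benjamini-Hochberg adjustment, adjusted p = 0.0254), and its dimmer probe set differed by -0.30 without passing (adjusted p = 0.116). It no longer passed when any of 4 calves was left out, hypoxia calves 192 and 199 and control calves 177 and 181 (adjusted p up to 0.0690), and with the run of calf numbers as a block (adjusted p = 0.0513).

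Downstream of TrkB, 0 of 19 measured adaptors and kinases of the Ras, phosphoinositide 3-kinase and phospholipase C branches passed (limma), beside 3.66% of all genes. Of the 19, 7 had an unadjusted p under 0.05, where 22.4% of all genes had one, and the median difference was -0.09. Those closest to the threshold, named after their values were seen, were the ribosomal S6 kinase RPS6KA3, which differed by 0.94 ± 0.23 (adjusted p = 0.0554), and MAP2K1, the kinase that activates ERK, which differed by 0.50 ± 0.13 (adjusted p = 0.0613). Both of these differences were positive, but the 7 with an unadjusted p under 0.05 had differences of both signs. The adaptors GAB1 and SH2B1, named with values known, differed by -0.51 ± 0.21 and -0.26 ± 0.12 (limma, adjusted p = 0.221 and 0.268). The subunits of phosphoinositide 3-kinase, also named with values known, had differences of both signs, -0.62 ± 0.20 for the regulatory PIK3R1, -0.44 ± 0.17 for the regulatory PIK3R2 and 0.51 ± 0.18 for the catalytic PIK3CA.

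No other measured gene of the JNK cascade passed beside MAPK10. Of 37 listed, 20 were measured, of which 0 passed (limma, with 3.66% of all genes), 6 had an unadjusted p under 0.05 (22.4% of all genes), and the median difference was -0.01. MAPK8, which encodes the widely expressed JNK1, differed by -0.19 ± 0.12 (95% interval -0.45 to 0.07, adjusted p = 0.463), and MAP2K4, a kinase that activates JNK, differed by 0.02 ± 0.14 (adjusted p = 0.957). MAPK9 and MAP2K7 were not analysed here, having no probe set with those symbols. JUN, the transcription factor for which the family is named, had a difference of -0.58 ± 0.40 on the brightest of its 5 probe sets. None of the 5 passed. On the brightest the controls ranged widely, with 10.31 to 11.14 in hypoxia and 10.15 to 12.52 in control calves. The difference was -0.065 in the lower and -2.003 in the upper run of calf numbers, and -0.85 to -0.26 with 1 calf left out. The scaffold SH3RF1 and DUSP10, a phosphatase that switches JNK off, came closest, again named after their values were seen. They differed by 0.68 ± 0.16 and -1.05 ± 0.27 (limma, adjusted p = 0.0530 and 0.0645). The others at an unadjusted p under 0.05, also named with values known, were GADD45A at 0.77, MAP3K12 at 0.44, ATF2 at 0.39 and SPAG9 at 0.36. Among the 6, only DUSP10 was lower in hypoxia.

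Relatives and partners of LRFN5 were thinly covered. Of 38 listed synaptic adhesion genes, 8 were measured, among them 1 of the 4 other LRFN genes, and 0 passed (limma), with 0 at an unadjusted p under 0.05. Over all genes these shares were 3.66% and 22.4%. The differences of the 8 lay between -0.28 and 0.14, with a median of -0.05. LRFN3 differed by -0.06 ± 0.15 (95% interval -0.39 to 0.26, adjusted p = 0.879), and, named after its value was seen, the phosphatase PTPRF, of the receptor class that LRFN5 binds, by 0.03 ± 0.16 (adjusted p = 0.951).

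The other members of the transgelin and calponin family had positive differences, as TAGLN3 did, and CNN3 was the one that passed. Of 5 measured, 1 rose and 0 fell, where 2.17% of all genes rose and 1.49% fell, with 3 at an unadjusted p under 0.05 (22.4% of all genes) and a median difference of 0.31. CNN3, the actin-binding acidic calponin, had 9.14, 9.19, 8.99, 9.39 and 8.97 in hypoxia calves 173, 178, 192, 199 and 204, against 8.41, 8.66, 8.44, 8.53 and 8.76 in control calves 176, 177, 180, 181 and 195. The groups did not overlap, and CNN3 rose by 0.58 ± 0.11 (limma, adjusted p = 0.0211). The call was lost without control calf 181 (adjusted p = 0.0585) and with the run of calf numbers as a block (adjusted p = 0.0614).

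TAGLN, the smooth muscle transgelin, differed by 0.23 ± 0.26 (95% interval -0.35 to 0.81, adjusted p = 0.720 by limma), and its sign turned, to -0.0092, without hypoxia calves 178 and 199. TAGLN2 differed by 0.31 ± 0.13 (adjusted p = 0.229). CNN1, the smooth muscle calponin, differed by 1.61 ± 0.53 without passing (adjusted p = 0.134), with 8.95, 10.003, 8.73, 10.64 and 8.73 in hypoxia calves 173, 178, 192, 199 and 204, against 8.41, 8.06, 6.28, 7.08 and 9.13 in control calves 176, 177, 180, 181 and 195. The CNN1 difference was 2.01 in the lower run of calf numbers, 0.23 in the upper run and 1.01 without hypoxia calves 178 and 199. Among the hypoxia calves, calf 199 was highest for both CNN1 and TAGLN3 (6.12). Calf 204 was lowest for TAGLN3 (5.14) and, together with calf 192, for CNN1. Calf 178 had the next highest CNN1 and a TAGLN3 of 5.76, below calves 173 and 192 (5.90 and 6.11). Whether CNN1 and TAGLN3 vary together was not tested. The 12 measured markers of smooth muscle and pericytes, CNN1 and TAGLN among them, had a mean of 8.39 to 8.89 in hypoxia and 8.12 to 8.61 in control calves, ranges that overlap. Of them 2 rose, beside 2.17% of all genes. They were the intermediate filament gene DES, by 0.52 ± 0.10 (limma, adjusted p = 0.0209), and the vascular adhesion molecule MCAM, by 0.68 ± 0.16 (adjusted p = 0.0430). Their part in the TAGLN3 difference was not tested. DES had means of 13.6 in hypoxia and 13.1 in control calves. These lay near the cardiomyocyte list means of 12.9 to 13.2 and far above the means of its own list. The cells behind its rise were not identified. DES lost its call without control calf 181 (adjusted p = 0.0585), and MCAM kept its own when hypoxia calf 192, control calf 177 or control calf 195 was left out but with no other (adjusted p up to 0.105). With the run of calf numbers as a block neither passed (limma, adjusted p = 0.0572 for DES and 0.106 for MCAM).

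**Figure D3:**
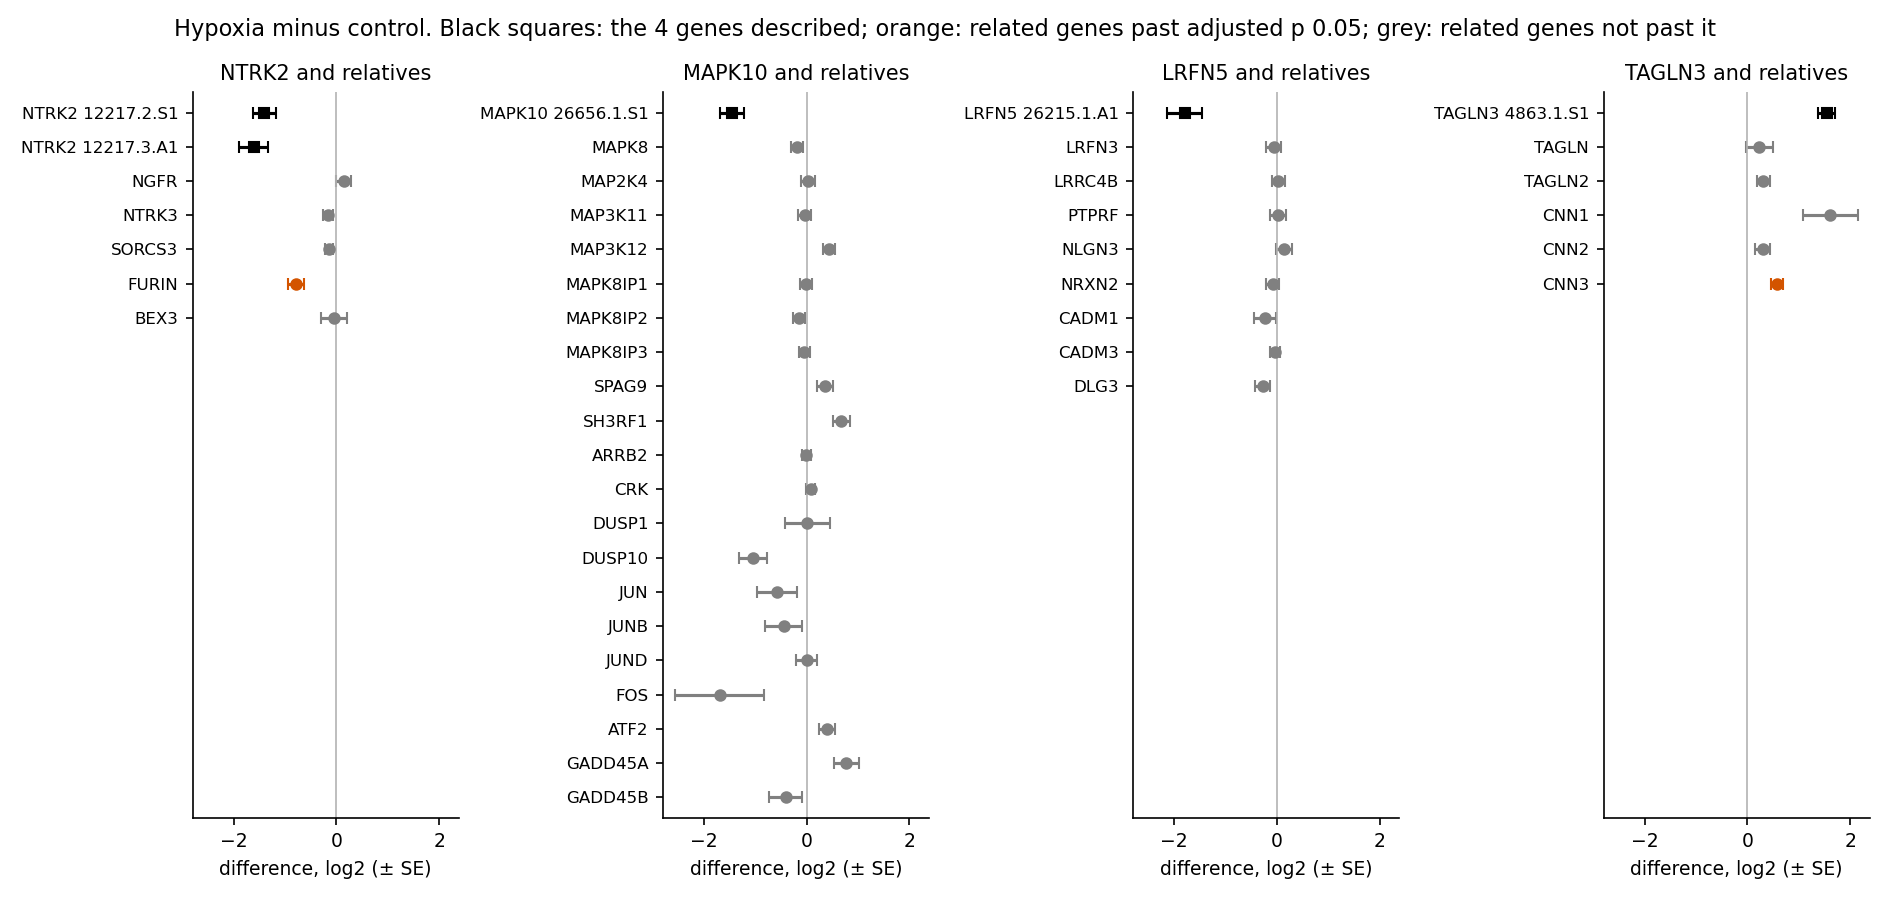
Hypoxia minus control difference (horizontal axis, log2, ± SE) of the probe sets of NTRK2, MAPK10, LRFN5 and TAGLN3 (black squares) and of every measured gene of the neurotrophin, JNK, synaptic adhesion and transgelin lists (circles; orange for those past an adjusted p of 0.05). Only FURIN at -0.79 and CNN3 at 0.58 are orange, and the relatives of LRFN5 lie between -0.28 and 0.14.

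Markers of nerve cells were examined next. Of 25 measured neuron markers 0 passed (limma), with 6 at an unadjusted p under 0.05, where 3.66% of all genes passed and 22.4% had such an unadjusted p. These counts are near the shares of all genes, so nothing is read from them. Those 6, named after their values were seen, had differences of both signs. They were NCAM1 at 0.81, SYN1 at 0.77, MAP1B at 0.64, MAP2 at 0.50, SV2A at -0.22 and NEFL at -0.19. The median difference of the 25 was -0.04. The list mean was 4.80 to 5.05 in hypoxia and 4.83 to 4.93 in control calves, so the groups overlapped, and 10 of the 25 were in the dimmest 25% of probe sets. Of 14 measured markers of autonomic and sensory nerves 0 passed, with 1 at an unadjusted p under 0.05, a median difference of 0.01 and list means of 3.87 to 4.04 in hypoxia and 3.82 to 4.06 in control calves. RMA gives no value of 0 and no call of presence, so a dim marker cannot be called absent. The 9 measured corepressors that work with REST, the silencer of neuronal genes in other tissues, had a median difference of -0.08 and 0 calls, with 2 at an unadjusted p under 0.05. Those 2, named after their values were seen, were EHMT2 at -0.34 ± 0.08 (limma, adjusted p = 0.0576) and KDM1A at -0.31 ± 0.09 (adjusted p = 0.0837). REST itself was not analysed here.

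Among 10 measured Schwann cell and glia markers, 1 rose and 0 fell, where 2.17% of all genes rose and 1.49% fell, with 5 at an unadjusted p under 0.05 (22.4% of all genes). The one that rose was FABP7, the brain-type fatty acid binding protein, with 10.82, 11.69, 10.04, 11.07 and 10.71 in hypoxia calves 173, 178, 192, 199 and 204, against 8.04, 7.70, 7.18, 7.17 and 7.94 in control calves 176, 177, 180, 181 and 195. The groups were far apart, and the difference was 3.26 ± 0.28 (limma, adjusted p = 0.00113). FABP7 was the one related gene that still passed with the run of calf numbers as a block (adjusted p = 0.0040). The list mean was 6.79 to 6.91 in hypoxia and 6.36 to 6.65 in control calves. Without FABP7, a step added after its value was seen, it was 6.29 to 6.49 in hypoxia and 6.27 to 6.53 in control calves, a difference of -0.04. The other markers at an unadjusted p under 0.05, named after their values were seen, had differences of both signs and did not pass. They were LGI4 at 0.53, S100B at 0.33, MAL at -0.73 and GFAP at -0.26. SOX10, a defining transcription factor of Schwann cells that was named after its value was seen, differed by -0.05 ± 0.11 (limma, adjusted p = 0.881). It was dim, with means of 3.68 in hypoxia and 3.73 in control calves, where the dimmest 25% of probe sets lay below 3.618.

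Other cell types that the tissue holds were followed by the same kind of list. Over all genes, 3.66% passed (2.17% rose and 1.49% fell) and 22.4% had an unadjusted p under 0.05. Endothelial markers had 0 calls among 15 (4 at an unadjusted p under 0.05), a median difference of 0.23 and means of 7.01 to 7.63 in hypoxia and 6.82 to 7.26 in control calves. Macrophage markers had 0 calls among 11 (2 at an unadjusted p under 0.05), a median difference of 0.36 and means of 6.74 to 7.63 in hypoxia and 6.33 to 7.29 in control calves. Of 15 fibroblast markers, the adventitial gene PI16 rose by 1.71 ± 0.33 (limma, adjusted p = 0.0238). The growth factor receptor PDGFRA and the microfibril gene MFAP4 fell by 0.89 ± 0.17 and 0.82 ± 0.19 on the log2 scale (limma, adjusted p = 0.0213 and 0.0493). The PDGFRA fall was on the brightest of its 3 probe sets. Its dimmer ones had differences of the other sign, 0.14 and 0.07, and did not pass (limma, adjusted p = 0.488 and 0.870). The ranges of the 2 groups overlapped for each of these 3 list means (9.05 to 9.89 in hypoxia and 9.21 to 9.69 in control calves for fibroblast markers), and their part in the differences of the 4 genes was not tested. Calls also changed with the calves: PI16 lost its call without control calf 181 or hypoxia calf 178, PDGFRA without control calf 177 or 181, and MFAP4 kept it only without control calf 177 or hypoxia calf 173 (highest adjusted p = 0.0549, 0.0596 and 0.114). With the run of calf numbers as a block none of the 3 passed (limma, adjusted p = 0.0582 for PI16, 0.0604 for PDGFRA and 0.0906 for MFAP4).

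**Figure D4:**
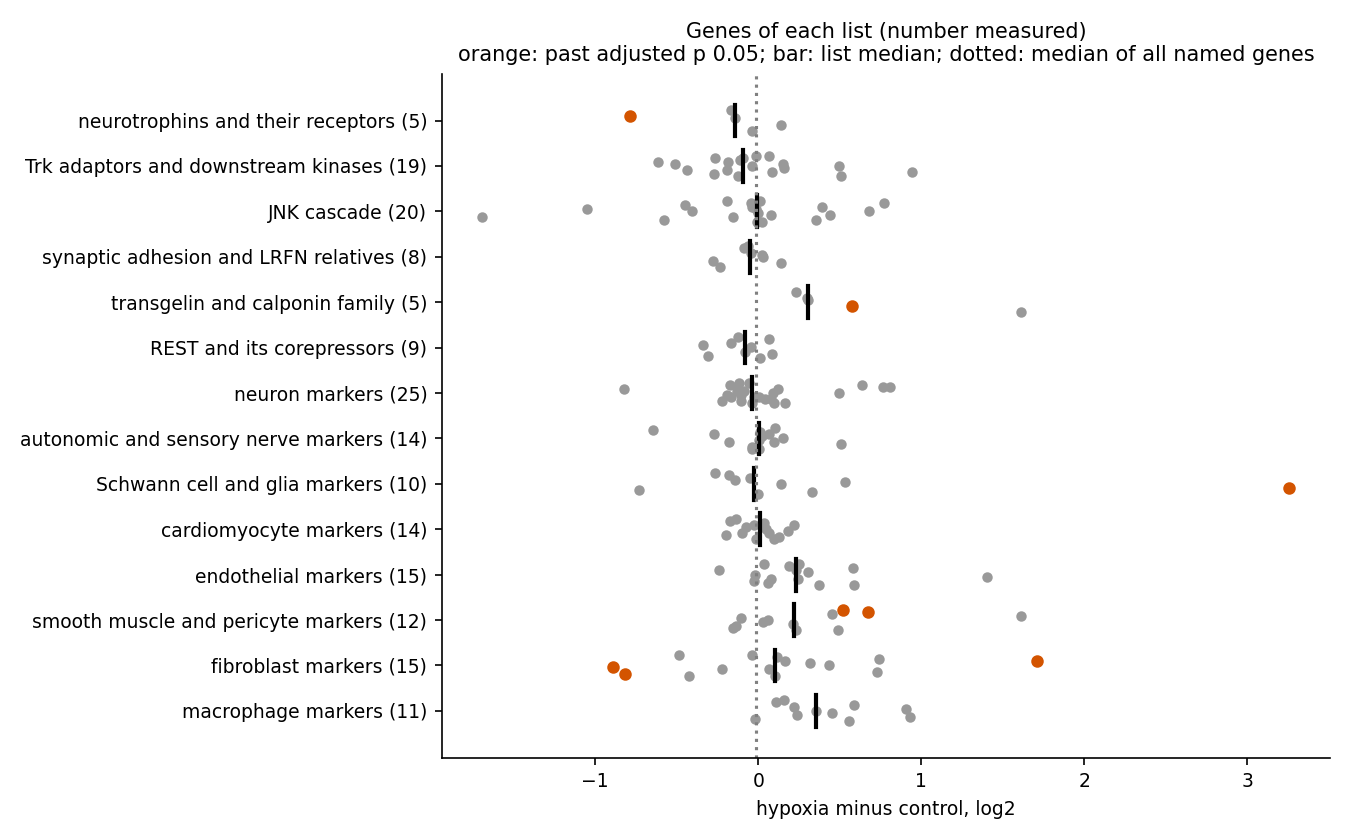
Hypoxia minus control difference (horizontal axis, log2) of each measured gene in the 14 lists, 1 circle per gene, with orange circles past an adjusted p of 0.05, black bars at the list medians and a dotted line at the median of all genes, -0.01. The neuron and nerve lists have no orange circle, and FABP7 at 3.26 stands alone among the glia markers.

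The nearest coding genes on the chromosome, taken from the cattle assembly ARS-UCD2.0 as the 2 on either side of each of the 4 genes and looked up after the differences were known, gave 16 neighbours, of which 7 were measured. None of the 7 passed (limma), beside 3.66% of all genes, and 1 had an unadjusted p under 0.05, beside 22.4%. The differences lay between -0.42 and 0.61. Beside NTRK2, the nucleoside transporter SLC28A3 differed by -0.16 ± 0.09 and the deglutamylase AGTPBP1 by -0.42 ± 0.20 (adjusted p = 0.411 and 0.305). Beside MAPK10, ARHGAP24 and PTPN13 differed by -0.09 ± 0.19 and 0.04 ± 0.11. Beside TAGLN3, PHLDB2, a membrane anchor of microtubules, differed by 0.61 ± 0.15 (adjusted p = 0.0592) and ABHD10 by -0.10 ± 0.17.

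Genes with the most similar pattern over the 10 calves were sought among 9151 others, on the brightest probe set of each. The highest r of so many will be high, so these values are a description. On the values as they are, the nearest to NTRK2 was the splicing factor RBM22 (r = 0.970), to MAPK10 the ribosome-associated scaffold RACK1 (r = 0.965), to LRFN5 the synaptic vesicle protein SV2A (r = 0.938) and to TAGLN3 the vesicle coat subunit COPZ2 (r = 0.962), followed by CDK1, the kinase of mitotic entry (r = 0.961). USP39 and ZBTB48 followed for NTRK2, ANP32A and VPS11 for MAPK10, TRIM32 and AMBP for LRFN5 and PRKAR1A for TAGLN3, with r between 0.914 and 0.957. On deviations from the group means, which leave out the difference between groups, the nearest were CHPF, DYRK3 and KLHDC8A for NTRK2 (r = 0.969, 0.962 and 0.948), RACK1, SLC35A3 and POSTN for MAPK10 (0.979, 0.949 and 0.931), IRAG1, KPNA2 and NUP205 for LRFN5 (0.950, 0.924 and 0.924) and SPAST, PPAN and PSMA5 for TAGLN3 (0.920, 0.919 and 0.897). For the genes nearest on deviations, r over the values as they are ran from -0.701, for PPAN with TAGLN3, to 0.965, for RACK1 with MAPK10. PPAN differed by -0.40 ± 0.09 (limma, adjusted p = 0.0430), opposite in sign to TAGLN3. RACK1 was the one gene among the nearest 3 by both measures, for MAPK10. The difference of RACK1 itself was small, at -0.18 ± 0.08, and did not pass (limma, adjusted p = 0.281).

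**Figure D5:**
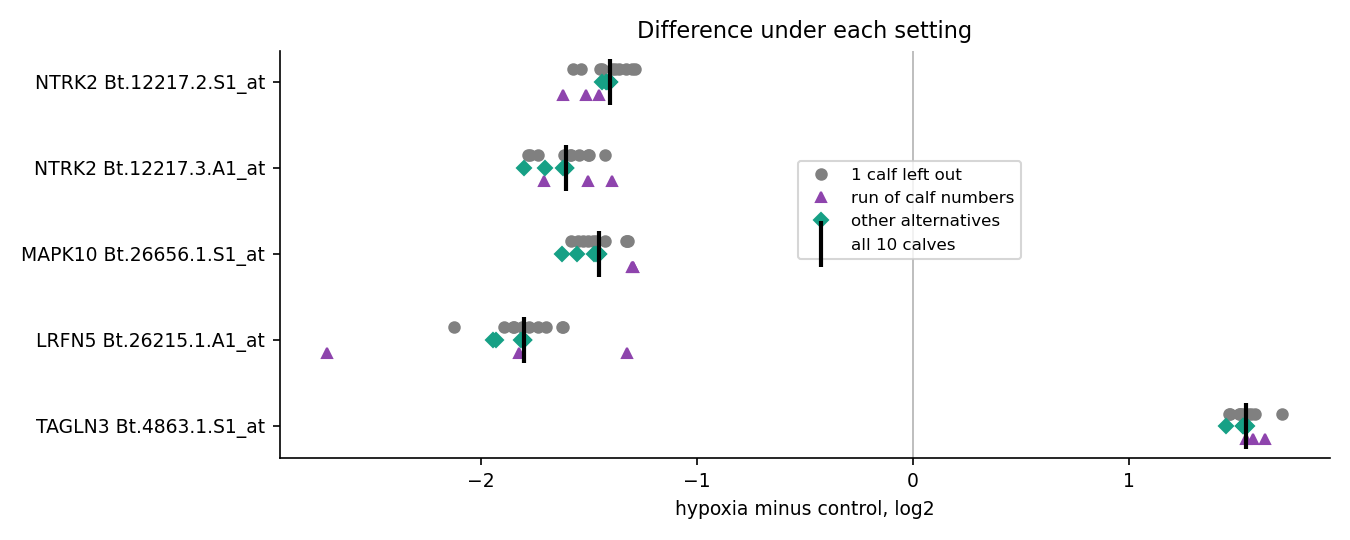
Hypoxia minus control difference (horizontal axis, log2) of each probe set with all 10 calves (black bar), with 1 calf left out (grey circles), within or blocked by the run of calf numbers (purple triangles) and under the other alternatives (green diamonds). No value crosses 0, and LRFN5 spreads most, from -2.71 to -1.33.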

How the data were processed

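The deposited tables held log2 expression values that the authors made with RMA, per the submitters' processing notes, a method that corrects background, equalizes the arrays' quantiles and summarizes each probe set, with no software version or probe set definitions given in the sources used here. This step makes the arrays' distributions alike, so a shift of all transcripts together would be removed. The 2 tables were equal in every shared cell (largest difference 0), and 112 Affymetrix control probe sets were left out. Groups came from the sample titles, and no calf number occurs in both, so no pairing was made.

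All 24016 probe sets were fitted by limma's lmFit and eBayes (version 3.58.1, R 4.3.3). The model had an intercept and 1 tested coefficient, hypoxia minus control. P-values were adjusted by Benjamini-Hochberg across these probe sets, with a threshold of 0.05. Symbols came from the platform annotation, where 13292 probe sets had 1 symbol, and 0 changed through the cattle reference table. For a gene with several probe sets, the one with the highest mean stood for it. The procedure was tested on simulated data. Exact permutation tests used scipy 1.17.1 and figures matplotlib 3.10.9 in Python 3.11.15. The number of arrays limits the precision.

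Named genes were the 5 probe sets, 22 receptors, ligands, kinases, family members and FABP7 whatever their result, up to 4 genes of each list with the smallest p among those that passed, and the 3 most similar genes by each measure. Other genes, neighbours included, were named after their values were seen, as the text says beside them. The 4 genes and the 14 lists were chosen with earlier results of these data known. As alternatives, arrays were rescaled or weighted, dim probe sets dropped, the variance model and threshold changed, calves left out and the runs of calf numbers blocked or separated.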

Additional observations from a re-analysis of the deposited data

Results flagged for a closer look

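Among 44 groups of 5 calves examined for 1 value far from the rest (2 groups for each of the probe sets and genes named), 2 stood out by Dixon's test, which flags about 1 group in 20 by chance. Both were control calf 177. TAGLN was 8.98 in that calf, against 7.90 to 8.18 in the other controls. MFAP4, the microfibril gene of the fibroblast list, was 6.50 in it, against 7.18 to 7.23 in the other controls, and no group of NTRK2, MAPK10, LRFN5 or TAGLN3 stood out.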

How the results depend on the processing

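No paired analysis was possible because the hypoxia and control calves share no calf numbers. With all 10 calves, 2.71% of 24016 probe sets and 3.66% of 9155 genes passed. The counts that passed were 652 probe sets, 5 of the 5 probe sets of the 4 genes and 8 of 179 related genes. With the run of calf numbers as a block these counts were 217, 3 and 1, in the lower run alone 31, 1 and 1, and in the upper run alone 0, 0 and 0 (limma, 2578 probe sets at an unadjusted p under 0.05, with the lone control assumed to vary like the hypoxia calves). Leaving out 1 calf gave 241 to 605 probe sets, 4 to 5 of the 5 and 1 to 8 related genes, lowest without control calf 181 (288 without control calf 177, and 361, 403, 348 and 396 without hypoxia calves 178, 192, 199 and 204, with 5 related genes without 178 or 199). Without hypoxia calves 178 and 199 together, 155 probe sets, 4 of the 5 and 2 related genes passed. At an adjusted p of 0.01 the counts were 77 probe sets and 1 related gene, and at 0.10 they were 1436 and 17. The 5 probe sets kept their signs in every fit. Among the 9 related genes that did not pass and were refitted, the sign turned 13 times in 4 genes, with no call: NGFR was -0.16 in the upper run. MAP2K4 was -0.12 with the block, -0.033 and -0.28 in the lower and upper run and -0.037 to 0.12 with 1 calf left out. LRFN3 was 0.036 with array weights, 0.16 without hypoxia calves 178 and 199 and -0.14 to 0.048 with 1 calf left out, and TAGLN was -0.0092 without those 2 calves. In the lower and upper run, MAPK8 was -0.093 and -0.37, NTRK3 -0.26 and -0.10, TAGLN 0.082 and 0.42 and TAGLN2 0.35 and 0.12. Fits that leave calves out also have fewer calves, and the cause of these changes was not tested.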
